A study of Homo sapiens with 16 samples.

Results

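The immediate early transcription factors followed here are 3 zinc finger genes of the EGR group (EGR1, EGR2 and EGR3) and 7 basic leucine zipper genes that make up the AP-1 complex (FOS, FOSB, FOSL1, FOSL2, JUN, JUNB and JUND). These 10 genes were taken by symbol from the expression tables and occupy 14 of 32062 transcript rows, or 10 of 21453 gene symbols. Polyadenylated RNA was sequenced from 2 estrogen receptor-positive cancer cell lines, ECC-1 from the endometrium and T-47D from the breast. Each line was held for 5 days in hormone-depleted medium, without phenol red and with charcoal-stripped serum, and was then exposed for 8 h. The 4 exposures in each line were the vehicle (0.02% DMSO), 10 nM 17β-estradiol, 100 nM bisphenol A (BPA, a plastics monomer) and 100 nM genistein (a soy isoflavone). Both of the latter compounds bind estrogen receptors. Each of the 8 groups had 2 libraries, 16 in all. The labels carry replicate numbers but do not say whether the 2 libraries of a group came from separate cultures, so p-values measure only the spread between these libraries.

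Immediate early genes are switched on by growth factor and stress signals without new protein synthesis, mostly through the MAP kinase cascade and the serum response factor (SRF), which binds CArG boxes in their promoters. JUN proteins pair with each other or with FOS proteins to bind AP-1 sites, whereas FOS proteins need a JUN partner. EGR proteins bind GC-rich sites on their own. Estrogen receptors act on this system in a direct way, by tethering to AP-1 on DNA, and in an indirect way, through kinase signalling. Transient induction of FOS by estrogen is a textbook feature of the uterus and of breast cancer cells. All libraries here were taken at 8 h, so a rise that had ended before then could not be seen.

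The upstream promoter of EGR1 is shown because EGR1 had the highest treatment differences among the tested genes of the set. These 250 bases end just before the start site (chr5:138465229-138465478, plus strand, RefSeq on GRCh38.p14). Capitals mark, in order, a match to the EGR site GCGNGGGCG, at positions -198 to -190 from the start site, and CArG boxes at -105 to -96 and -83 to -74.
EGR1: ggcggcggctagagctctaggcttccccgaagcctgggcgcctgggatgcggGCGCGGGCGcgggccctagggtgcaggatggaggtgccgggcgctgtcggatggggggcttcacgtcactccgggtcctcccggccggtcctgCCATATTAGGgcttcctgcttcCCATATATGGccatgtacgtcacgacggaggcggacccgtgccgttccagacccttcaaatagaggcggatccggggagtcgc
A stretch of 30 bases from the promoter of EGR2 (chr10:62816418-62816447, minus strand) is shown for comparison, with its CArG box in capitals at positions -71 to -62.
EGR2: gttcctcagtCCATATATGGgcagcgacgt

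Of the 10 genes, 8 had a promoter window of 300 bases in the RefSeq table, of which the 250 bases before the start site were searched. A CArG box (CC, then 6 letters that are A or T, then GG) was found in 2 of these 8, EGR1 and EGR2, and in 1.16% of all 35116 windows. A cyclic AMP response element (TGACGTCA) was found in 1 of the 8, JUND, where it lies at positions -200 to -193, and in 1.65% of all windows. The EGR site was found in 1 of the 8 (EGR1) and in 8.41% of windows. Neither the AP-1 site TGANTCA (6.57% of windows) nor the full estrogen response element (GGTCA and TGACC with 3 bases between them) (0.0399% of windows) was found in any of the 8. Both strands were searched, and sites farther upstream were not covered. A match describes letters in a window and no binding was measured in these samples.

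The libraries held an estimated 17240000 to 29240000 mapped reads each. The authors' values are RPKM, which are reads divided by transcript length and library depth. Each library was rescaled by a factor between 0.938 and 1.054, and the result is called scaled RPKM below. All 6 endometrial markers were detected in ECC-1 (summed level 330 to 375 scaled RPKM) and all 6 were under 1 in T-47D (summed level 0.579 to 0.985). The 7 luminal breast markers summed to 3351 to 5908 in T-47D and to 1039 to 1751 in ECC-1. KRT18 and KRT19 made up most of both sums, and KRT18 read 1060 to 2060 in T-47D and 883 to 1570 in ECC-1. GATA3 and SPDEF were under 1 in every ECC-1 library and at 150 or above in every T-47D library. Summed markers of other cells were lower in both lines (fibroblast 9.42 to 31.8, leukocyte 3.39 to 7.49, endothelium 0.0846 to 1.88). The 4 endothelial markers summed to 1.28 in the second BPA library of T-47D and to 0.0846 to 0.223 in the other 7 libraries of that line. The first estradiol library stood apart from the rest in each line. Between replicates, log2 differences had an SD of 0.343 with estradiol in ECC-1 and of 0.411 with estradiol in T-47D. The remaining 6 groups had SDs of 0.170 to 0.242.

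The 10 genes spanned a wide range, and the order differed between the lines. In ECC-1 with DMSO the mean level fell in the order JUNB (13.9 ± 2.19 scaled RPKM, SD, n = 2), JUND (12.4 ± 2.20), JUN (9.25 ± 0.451), EGR1 (4.90 ± 1.54), FOSL2 (2.34 ± 0.204), FOS (1.37 ± 0.0575), FOSL1 (1.05 ± 0.0116), FOSB (0.241 ± 0.0765), EGR3 (0.118 ± 0.0173) and EGR2 (0.0668 ± 0.0170). Only JUNB and JUND overlapped among neighbours in that order. In T-47D with DMSO the order was JUND (43.0 ± 1.38), JUN (28.7 ± 2.43), JUNB (12.4 ± 0.509), FOSL2 (6.59 ± 0.506), FOS (0.887 ± 0.182), EGR1 (0.335 ± 0.133), FOSB (0.235 ± 0.0185), FOSL1 (0.172 ± 0.0946), EGR2 (0.0360 ± 0.0321) and EGR3 (0.0159 ± 0.00345). There EGR1 overlapped with FOSB, FOSB with FOSL1, and EGR2 with EGR3.

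**Figure D1:**
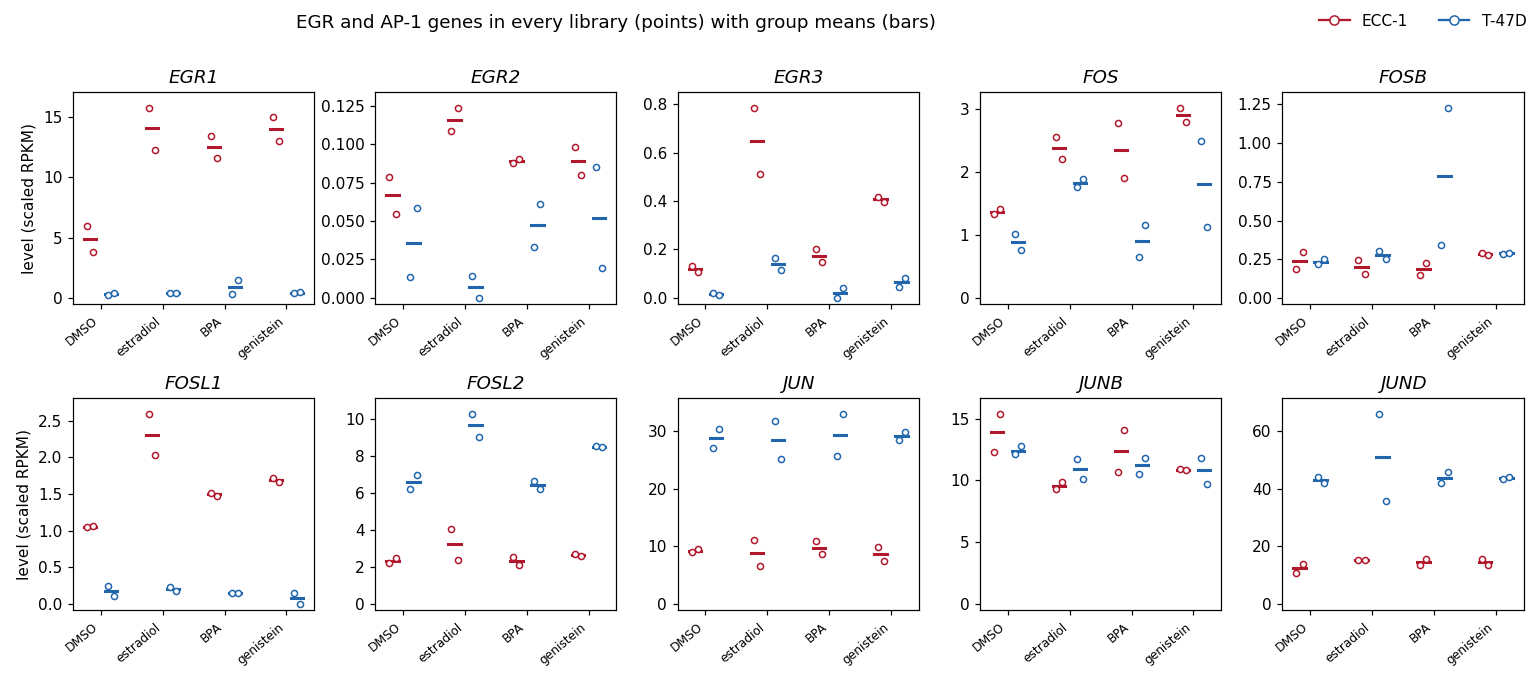
Level of each of the 10 genes (vertical axis, scaled RPKM, own scale per gene) by treatment (horizontal axis) in ECC-1 (red) and T-47D (blue). Points are single libraries and bars are means of 2. EGR1 lies at 3.81 or above in every ECC-1 library and at 1.46 or below in every T-47D library, whereas JUN and JUND are higher in every T-47D library.

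A test was made on log2(scaled RPKM + 0.5) with limma over all 13827 genes that reached 1 RPKM in at least 2 libraries, with Benjamini-Hochberg adjustment within each comparison and a threshold of 0.05. Of the 10 genes, 7 passed this filter; EGR2, EGR3 and FOSB did not. The log2 differences below are on that scale, which understates changes of low genes.

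The lines were compared first, in their DMSO libraries. EGR1 and FOSL1 were lower in T-47D, and JUND, JUN and FOSL2 were higher there. In bulk RNA, fewer expressing cells and less RNA per cell cannot be told apart. These 5 of 7 tested genes stand against 76.7% of all tested genes called in either direction between the lines, a share near that background. EGR1, a zinc finger activator of growth and repair genes, read 5.99 and 3.81 scaled RPKM in the ECC-1 DMSO libraries and 0.241 and 0.429 in those of T-47D, with no overlap. Its log2 difference, T-47D minus ECC-1, was -2.67 (SE 0.29, limma adjusted p = 5.85e-07). FOSL1 encodes FRA-1, a FOS protein without the transactivation domain of FOS. Its levels were 1.05 and 1.06 in ECC-1 and 0.239 and 0.105 in T-47D, a log2 difference of -1.22 (SE 0.156). The FOSL1 values in T-47D rest on 10 and 3 reads.

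FOSL2, which encodes FRA-2, was the FOS gene that went the other way. It read 2.20 and 2.49 scaled RPKM in ECC-1 and 6.23 and 6.95 in T-47D (log2 difference 1.32, SE 0.177). JUND, the JUN gene that is usually held at a steady level, read 10.8 and 13.9 in ECC-1 and 44.0 and 42.0 in T-47D (1.77, SE 0.206). JUN read 8.93 and 9.57 against 27.0 and 30.4 (1.58, SE 0.209). The 5 calls held on leaving out any 1 of the 16 libraries. FOS was -0.44 (SE 0.244, adjusted p = 0.113) and JUNB -0.15 (SE 0.153, adjusted p = 0.389) in the same limma fit, and neither passed. FOS was called lower in T-47D without either of that line's genistein libraries (adjusted p = 0.0468 and 0.0469).

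The FOS and JUN families accordingly had different make-ups in the 2 lines. The 4 FOS genes summed to 5.01 ± 0.350 scaled RPKM in ECC-1 with DMSO (SD, n = 2), of which FOSL2 made up 46.7% ± 0.814, FOS 27.4% ± 0.767, FOSL1 21.1% ± 1.24 and FOSB 4.78% ± 1.19. They summed to 7.89 ± 0.249 in T-47D, of which FOSL2 made up 83.5% ± 3.79 and FOSL1 2.20% ± 1.27. The 3 JUN genes summed to 35.5 ± 4.83 in ECC-1 and to 84.1 ± 1.56 in T-47D. JUNB, which can oppose JUN on some promoters, made up 39.1% ± 0.845 of the ECC-1 sum and 14.8% ± 0.332 of the T-47D sum. With estradiol the FOS sum was 8.12 ± 1.91 in ECC-1 (9.47 and 6.77) and 12.0 ± 0.884 in T-47D. With genistein it was 7.54 ± 0.261 in ECC-1, inside the range of the estradiol libraries, and 10.7 ± 1.10 in T-47D. In both lines the estradiol and genistein libraries lay above those with DMSO. No such order was seen in the JUN sum, whose ECC-1 groups had means between 33.6 and 36.8. These shares and sums are descriptions and were not tested.

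**Figure D2:**
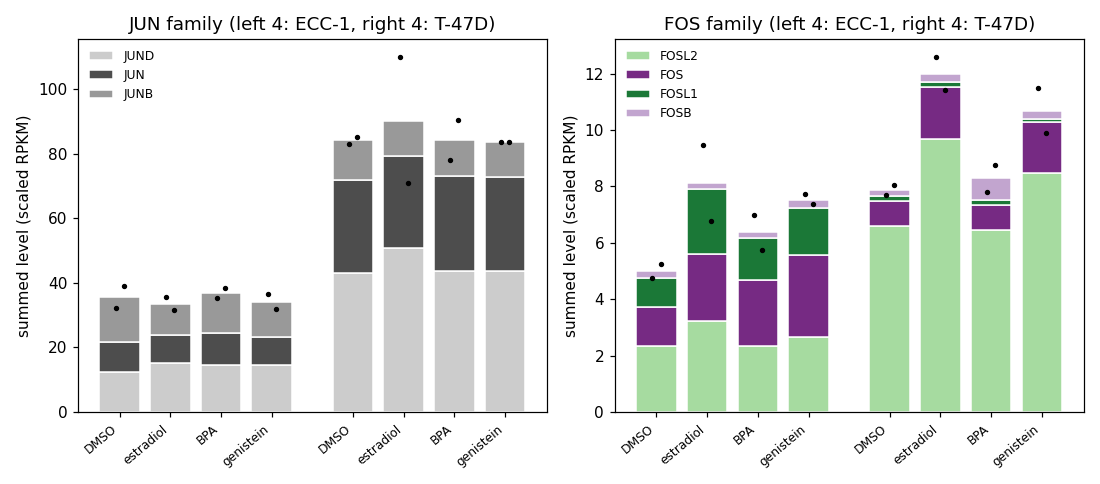
Summed level of the JUN genes (left) and FOS genes (right) in scaled RPKM, by treatment, with ECC-1 on the left and T-47D on the right of each panel. Stacked bars are group means of 2 libraries and dots are the family sums of single libraries. The group means of the JUN sum lie between 33.6 and 36.8 in ECC-1 and between 83.5 and 90.2 in T-47D, with the estradiol libraries of T-47D far apart, and FOSL1 fills a wide band in ECC-1 and a thin one in T-47D.

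Estradiol at 10 nM was compared with DMSO in ECC-1. EGR1 and FOSL1 rose, which is 2 of the 7 tested genes, and none fell. Over all tested genes 1.89% were called in either direction. EGR1 read 5.99 and 3.81 scaled RPKM with DMSO and 15.8 and 12.3 with estradiol, with no overlap. Its log2 difference was 1.45 (SE 0.29, 95% interval 0.83 to 2.07, limma adjusted p = 0.0154). FOSL1 read 1.05 and 1.06 with DMSO and 2.60 and 2.03 with estradiol, again with no overlap. The FOSL1 difference was 0.85 (SE 0.156, interval 0.52 to 1.18, adjusted p = 0.00786 in the same limma fit). Both calls ended without the first estradiol library, at 1.27 for EGR1 and 0.70 for FOSL1, and without the second DMSO library, at 1.15 and 0.86. The FOSL1 call also ended without the first DMSO library (0.84).

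The other 5 tested genes did not pass with estradiol in ECC-1. FOS, the partner of JUN in the classical AP-1 dimer, read 1.33 and 1.41 with DMSO and 2.56 and 2.21 with estradiol, so the groups did not overlap. Its log2 difference was 0.62 (SE 0.244, adjusted p = 0.248). JUNB went the opposite way, from 12.3 and 15.4 to 9.31 and 9.83, without overlap (-0.51, SE 0.153, adjusted p = 0.127). FOSL2 was uneven, at 4.07 in the first and 2.37 in the second estradiol library, against 2.20 and 2.49 with DMSO (0.35, SE 0.177). Without the second estradiol library the FOSL2 difference was 0.69, a value that rests on the first estradiol library alone. JUN read 11.0 and 6.65 and JUND 15.2 and 15.1, with differences of -0.10 and 0.29.

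EGR3, a close relative of EGR1 that estrogen is known to induce in breast cancer cells, was low but had the highest ratio to DMSO of the 10 genes. Its levels in ECC-1 were 0.130 and 0.106 scaled RPKM with DMSO and 0.786 and 0.512 with estradiol. These correspond to an estimated 26 reads with DMSO and 105 with estradiol, a rate ratio of 5.59 (95% interval 3.61 to 8.94, for counting error only). In a limma fit without the filter, over the 19920 genes listed above 0 in any library, its log2 difference was 0.88 (SE 0.0958, adjusted p = 0.000647), and 1.40% of genes were called. EGR3 stayed called on leaving out any 1 of the 16 libraries, with values of 0.71 to 1.06. EGR2, a further relative, had 5 to 8 reads in each ECC-1 library, at 0.0549 to 0.124 scaled RPKM. At that depth no difference was detectable; its read ratio for estradiol was 1.79 (interval 0.727 to 4.57).

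**Figure D3:**
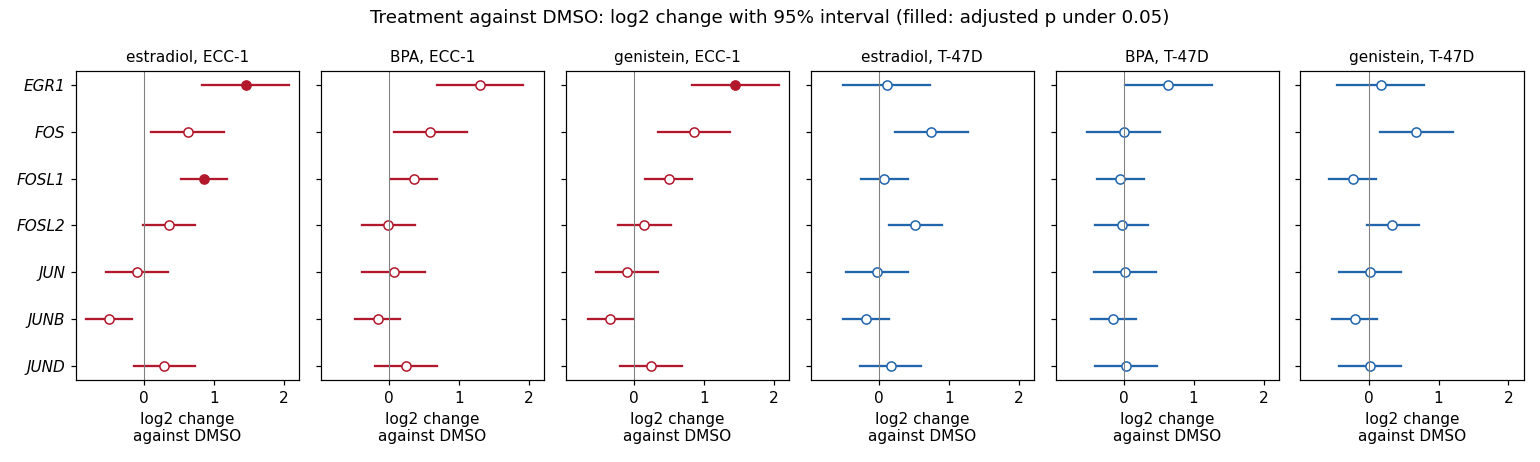
Log2 difference from DMSO (horizontal axis, on log2(scaled RPKM + 0.5)) of the 7 tested genes for each compound in ECC-1 (red) and T-47D (blue). Points are limma estimates over 2 libraries a group, lines are 95% intervals before adjustment, and filled points passed an adjusted p of 0.05. The filled points are EGR1 with estradiol (1.45) and genistein (1.45) and FOSL1 with estradiol (0.85), all in ECC-1.

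EGR1 rose with 100 nM genistein in ECC-1 as well, and 1 of the 7 tested genes was called against 0.969% of all tested genes. EGR1 read 15.0 and 13.0 scaled RPKM, with no overlap with DMSO. The log2 difference was 1.45 (SE 0.29, interval 0.83 to 2.07, limma adjusted p = 0.0215). This comparison shares its DMSO libraries with the one for estradiol. The call ended without the second DMSO library (1.16) and without either genistein library (1.35 and 1.55). FOS read 3.03 and 2.80, the highest levels of this gene in any library, and did not overlap with DMSO. Its difference of 0.86 (SE 0.244) did not pass (adjusted p = 0.174 in the limma fit), but it passed with ECC-1 fitted alone (adjusted p = 0.0354) and without either T-47D genistein library (adjusted p = 0.0472 and 0.0471).

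FOSL1 read 1.72 and 1.67 with genistein, above both DMSO libraries and below both estradiol libraries (0.50, SE 0.156, adjusted p = 0.254 in the limma fit). JUNB read 10.9 and 10.8, below both DMSO libraries (-0.34, SE 0.153, adjusted p = 0.614). EGR3 read 0.418 and 0.397, from 79 reads against 26, a ratio of 3.51 (interval 2.23 to 5.70). Its log2 difference without the filter was 0.55 (SE 0.0958, limma adjusted p = 0.0213, with 0.863% of genes called). That call ended on leaving out either of its DMSO or genistein libraries, although the value stayed between 0.53 and 0.58. FOSL2, JUN and JUND had differences of 0.15, -0.10 and 0.24, none of which passed.

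BPA at 100 nM in ECC-1 gave no call among the 7 tested genes in the limma fit. Over all tested genes 0.195% were called, 27 in number, and 347 had an unadjusted p under 0.05. EGR1 read 13.4 and 11.6 scaled RPKM with BPA, far from the 5.99 and 3.81 with DMSO. Its difference was 1.30 (SE 0.29, interval 0.68 to 1.91, limma adjusted p = 0.163). It passed without either T-47D BPA library (adjusted p = 0.00904 and 0.00915), with ECC-1 fitted alone (0.0217), with a pseudocount of 1 (0.0442) and with array weights (0.0244), in each case at 1.22 to 1.30. On leaving out each of the 16 libraries in turn, EGR1 passed in those 2 cases only, with values of 1.00 to 1.59 over all 16. The T-47D BPA libraries enter through the shared estimate of spread, and they differ from each other in EGR1 as described below.

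FOS read 2.79 and 1.91 with BPA (0.59, SE 0.244) and FOSL1 1.52 and 1.48 (0.36, SE 0.156); both genes lay above their DMSO libraries, and neither passed. EGR3 read 0.201 and 0.148, from 39 reads, a ratio to DMSO of 1.48 (interval 0.876 to 2.52).

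BPA and genistein were given at the same dose and time, so they were compared directly in each line, as 2 pairs. None of the 7 tested genes was called in either line. The share called among all tested genes was 0.0434% in ECC-1 and 0.405% in T-47D. For EGR1 in ECC-1 the difference, genistein minus BPA, was 0.16 (95% interval -0.46 to 0.78), for FOS 0.28 (-0.24 to 0.80) and for FOSL1 0.13 (-0.20 to 0.47). The intervals leave room for differences in both directions and do not show that the compounds act alike. EGR3 was 0.43 higher with genistein (interval 0.22 to 0.64) in the fit without the filter, and this did not pass (limma adjusted p = 0.384). In T-47D the difference for FOS was 0.68 (interval 0.16 to 1.20, adjusted p = 0.692). Estradiol was given at 10 nM, so its values were not tested against those of the other compounds. Where levels with estradiol and genistein are set side by side, the doses differ.

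In T-47D estradiol gave no call among the 7 tested genes, while 3.22% of all tested genes were called. FOS came nearest. It read 1.02 and 0.759 scaled RPKM with DMSO and 1.76 and 1.89 with estradiol, without overlap, a difference of 0.75 (SE 0.244, limma adjusted p = 0.135). FOS passed without either T-47D genistein library (adjusted p = 0.0471 and 0.0475). FOSL2 read 6.23 and 6.95 with DMSO and 10.3 and 9.03 with estradiol, also without overlap (0.52, SE 0.177, adjusted p = 0.157). FOSL2 passed without either ECC-1 estradiol library. Neither gene passed on leaving out any other of the 16 libraries. Over all 16 the values were 0.62 to 0.88 for FOS and 0.43 to 0.61 for FOSL2.

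EGR1 read 0.390 and 0.402 with estradiol in T-47D, inside the range of its DMSO libraries, 0.241 and 0.429. FOSL1 stayed at 0.227 and 0.181, inside its DMSO range of 0.105 to 0.239. JUND read 66.1 in the first estradiol library and 35.6 in the second, the highest and lowest values of the 8 T-47D libraries. Its difference was 0.17 (SE 0.206). Without the first of these libraries it was -0.27, and without the second 0.62, each resting on a single estradiol library. JUN was also higher in the first, at 31.7 against 25.1. Of the 7 luminal markers 1 rose with estradiol in T-47D (KRT19, 0.81) and none fell, with a list median of -0.18 and a range of -0.50 to 0.81. Of 3 tested fibroblast markers LUM fell (-0.56), with a median of -0.14 and a range of -0.56 to 0.25. No endometrial, leukocyte or endothelial marker was called. Their part in these results was not tested.

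EGR3 was near the detection limit in T-47D with DMSO, at 2 reads and 1 read (0.0184 and 0.0135 scaled RPKM). With estradiol it had 17 and 10 reads (0.165 and 0.116), so the groups did not overlap. The read ratio was 8.71 (interval 2.68 to 44.8, counting error only). Its log2 difference without the filter was 0.31 (SE 0.0958, limma adjusted p = 0.165, with 1.92% of genes called). It passed with a pseudocount of 0.1, at 1.05 (adjusted p = 0.0450), and without either ECC-1 estradiol library (adjusted p = 0.0333 and 0.0338).

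**Figure D4:**
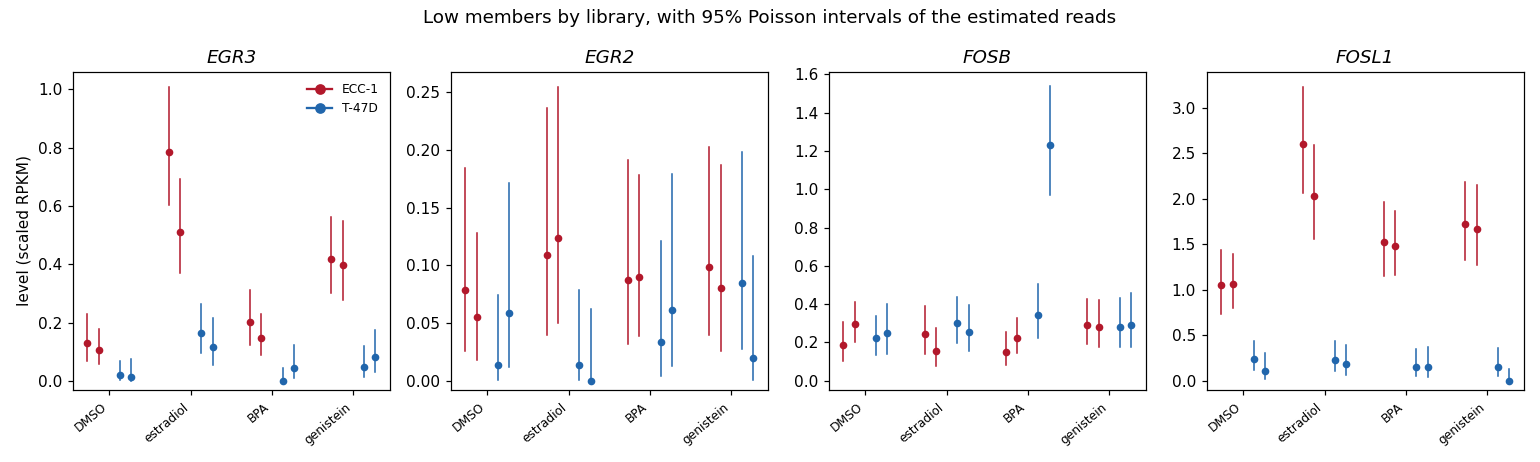
Level (vertical axis, scaled RPKM) of EGR3, EGR2, FOSB and FOSL1 in each library by treatment, in ECC-1 (red) and T-47D (blue). Points are single libraries and lines are 95% Poisson intervals of the estimated reads, which cover counting error only. EGR3 is highest with estradiol in both lines, and FOSB stands out in the second T-47D BPA library, at 1.23.

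Genistein in T-47D gave no call among the 7 tested genes, against 0.803% of all tested genes. FOS read 2.50 in the first library and 1.13 in the second, both above the DMSO values of 1.02 and 0.759 (0.68, SE 0.244, limma adjusted p = 0.468). FOSL2 read 8.52 and 8.47, above both DMSO libraries (0.34, SE 0.177, adjusted p = 0.959). EGR3 had 4 and 6 reads, a ratio to DMSO of 3.81 (interval 0.981 to 21.5). FOSL1 was listed at 0 in the second genistein library, where 3 reads would equal 0.104 scaled RPKM. EGR1 read 0.389 and 0.481.

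BPA in T-47D gave no call at all in the limma fit, 0% of the tested genes, and 116 genes had an unadjusted p under 0.05. Within the set, EGR1 and FOSB were high in the second BPA library only. Some markers of other cell types, mainly endothelial ones, were also high in that library, as given below. EGR1 read 0.350 (22 reads) in the first and 1.46 (75 reads) in the second, which is 3.03 times the highest of the other 7 T-47D libraries. FOSB, which encodes a FOS protein with a strong activation domain, read 0.344 (26 reads) and 1.23 (76 reads), 3.57 times the highest of the other 7. The rest of the set did not follow. JUN was highest there by a ratio of 1.04 (33.0 scaled RPKM), while FOS (1.16) and EGR3 (0.0422) lay inside the range of the other libraries.

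In the fit of both BPA libraries of T-47D, neither EGR1 (0.64, SE 0.29) nor FOSB (0.72, SE 0.235, no filter) passed. Without the first BPA library FOSB was 1.23 and passed (limma adjusted p = 0.000925, with 0.443% of genes called), and without the second it was 0.20. The fit behind that p holds 1 BPA library, assumed to vary like the other groups, and it is given after the disagreement of the libraries was seen. EGR1 was 1.24 and 0.03 in the same way. Of all tested genes 8.11% were highest in the second BPA library. This held for 2 of the 7 tested members (28.6%, EGR1 and JUN), 2 of 26 other tested immediate early genes (7.69%), 4 of 16 genes of MAP kinases and SRF partners (25%), 1 of 7 AP-1 targets (14.3%) and none of the tested bZIP partners, EGR corepressors or feedback genes. FOSB was otherwise steady, at 0.150 to 0.296 in ECC-1 and 0.222 to 0.344 in the other T-47D libraries.

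Some markers of other cell types were also highest in this library, most clearly those of endothelium. All 4 endothelial markers were highest there: VWF at 0.698 scaled RPKM (at most 0.145 in the other 7 T-47D libraries), PECAM1 at 0.325 (at most 0.101), CDH5 at 0.192 (at most 0.0283) and KDR at 0.0605 (at most 0.0412). Of the 6 fibroblast markers 4 were highest there, among them PDGFRB at 0.192 (at most 0.0203) and COL3A1 at 0.289 (at most 0.0741). COL1A2 (0.305, at most 0.141) and DCN (1.19, at most 1.06) were also highest there, while LUM and COL1A1 were not. The summed fibroblast level, 23.8, lay inside the range of the other 7 libraries (16.9 to 31.8). Most of that sum was COL1A1, at 20.7 (15.5 to 30.5 in the other 7), so it says little about the other fibroblast markers. For leukocytes 2 of 5 markers were highest there, with a sum of 5.01 inside the range of 4.17 to 7.49. Most of that sum was LYZ, at 4.03 (3.23 to 6.31 in the other 7). None of the endothelial, fibroblast or leukocyte markers was at 0 in this library. Of the 6 endometrial markers 2 were highest there (sum 0.906, against 0.579 to 0.985), and PAX8 and EMX2 were at 0. None of the 7 luminal markers was highest there (sum 4240, against 3351 to 5908). Of all 19208 genes listed above 0 in the line, 10.8% were highest in this library. The part of these markers in the EGR1 and FOSB values was not tested.

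The differences between the lines in their treatment responses were tested as interactions, T-47D minus ECC-1. None of the 7 tested genes passed for estradiol (1.73% of all tested genes called), BPA (0.0434%) or genistein (0.586%). With estradiol the value was -1.34 for EGR1 (SE 0.41, limma adjusted p = 0.135) and -0.77 for FOSL1 (SE 0.22, adjusted p = 0.105). The EGR1 interaction passed without either T-47D BPA library, still at -1.34. That of FOSL1 passed with quantile normalization or a pseudocount of 1 (limma adjusted p = 0.0471 and 0.0465). Without the second ECC-1 estradiol library the FOSL1 value was -0.92, resting on the first estradiol library alone in that line. With genistein the value was -1.28 for EGR1 (SE 0.41) and -0.72 for FOSL1 (SE 0.22, adjusted p = 0.322). For EGR3 with estradiol the value was -0.57 (SE 0.136, limma adjusted p = 0.0869, no filter), although its read ratio was numerically higher in T-47D. Adding 0.5 before taking logs compresses its low T-47D levels. The same holds for EGR1 and FOSL1, which were under 0.5 in T-47D with DMSO and estradiol. Neither interaction passed with a pseudocount of 0.1. The FOSL1 read ratio with estradiol was 2.19 (1.67 to 2.87, counting error only) in ECC-1 and 1.12 (0.496 to 2.55) in T-47D. For EGR1 the ratios were 2.99 (2.74 to 3.26) and 1.24 (0.815 to 1.91), again for counting error only. Such intervals leave out the spread between libraries and do not test the difference between the lines. The ECC-1 DMSO libraries read 5.99 (Poisson interval 5.41 to 6.6) and 3.81 (3.43 to 4.22) for EGR1. For FOS with estradiol the interaction was 0.13 (interval -0.60 to 0.87), so its response could not be told apart between the lines.

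Genes around the set were followed as lists. Of 29 further immediate early genes 26 were tested. In ECC-1 with estradiol 2 rose and 1 fell, against 1.89% of all tested genes called, with a median log2 difference of 0.06 over the list and 0.00 over all tested genes. DUSP2, a nuclear phosphatase of MAP kinases, went from 0.541 ± 0.0231 to 2.09 ± 0.144 scaled RPKM (1.31, limma adjusted p = 0.000265), and IER5L rose by 0.70. PLK2, a polo-like kinase, fell from 169 ± 0.563 to 94.4 ± 3.84 (-0.84). DUSP2 (1.30) and IER5L (0.82) also rose with genistein in ECC-1, 2 of 26 against 0.969% of all tested genes. No gene of the list was called in ECC-1 with BPA. In T-47D with estradiol IER3 rose (1.03) and TRIB1 fell (-0.67), 2 of 26 against 3.22% of all tested genes. The interaction for genistein was called for IER5L (-0.91, adjusted p = 0.0384 in the limma fit).

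Upstream of the set, none of 16 genes for MAP kinases and SRF partners was called with any compound in either line. Of the 6 feedback inhibitors of the same cascade, SPRY4 rose with estradiol in ECC-1 (0.68), where 1.89% of all tested genes were called. DUSP4 rose with estradiol in T-47D (0.96), where that share was 3.22%. Between the lines with DMSO 4 of the 6 feedback genes were lower in T-47D and 1 higher, a share near the 76.7% of all tested genes called. Their median difference was -2.82, against 0.04 for all tested genes, and the lowest values were those of DUSP6 (-3.82) and SPRY4 (-3.72). Among partners, none of 11 tested bZIP genes and neither of 2 tested EGR corepressors (NAB1 and NAB2) was called with any compound. Of 13 known AP-1 targets 7 were tested. CD44, a hyaluronan receptor, rose in T-47D with estradiol (0.81) and genistein (0.89), and no other target was called with a compound. That is 1 of 7 in each case, against 3.22% and 0.803% of all tested genes.

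The genes whose levels tracked each member most closely over the 16 libraries, after subtracting each line's mean, were ranked by Pearson correlation among 12922 candidates. They are a description over libraries that share lines and groups. EGR1 was tracked by NAT8L (r = 0.852), SLIT3 (0.852) and ESPNP (0.843), FOS by TNFRSF10B (0.887), and FOSL1 by C18orf45 (0.937). For FOSL2 the first gene was CHSY1 (0.947), for JUN FGFR3 (0.880), for JUNB TMUB2 and FLOT1 (both 0.935), and for JUND TNIP2 (0.947). Candidates had to be tested and to have a mean of at least 1 scaled RPKM, so EGR2, EGR3, FOSB and FOSL1 could not appear. None of the other members was among the 3 closest genes of another member.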

How the data were processed

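Polyadenylated RNA of 16 samples was sequenced from unstranded libraries, per the labels' protocols, so reads of antisense partners cannot be told apart. Reads were aligned with Bowtie to hg19 per the submitters' processing notes; versions and the counting rule are not given in the sources used here. RPKM values per RefSeq transcript were deposited by the authors. For each symbol the row with the highest mean was used. Libraries were scaled by the median ratio over 7547 genes of at least 5 RPKM. limma 3.58.1 (R 4.3.3) was fitted to 8 group means with a trended prior, giving 8 residual degrees of freedom. Low values of the deposited RPKM fell on steps: 60.3 to 63.7% of values under 10 reads lay within 0.1 of a whole read (20% by chance), which gave the read estimates. The fit was tested on simulated data. Alternatives covered scaling, pseudocount, filter, row choice, replicate block, weights, prior, lines fitted alone and each library left out. Genes named are the 10 members, called list genes (at most 4 a list) and the closest correlates. Members and lists were chosen with earlier results of these data known. Promoters came from RefSeq (GRCh38.p14).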

Additional observations from a re-analysis of the deposited data

How the results depend on the processing

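With 2 libraries a group, precision was limited: the median 95% interval spanned ± 0.33 (log2) for a treatment and ± 0.47 for an interaction. On leaving out each library in turn, genes called ranged from 110 to 2153 for estradiol, 10 to 34 for BPA and 58 to 203 for genistein in ECC-1, and from 161 to 3119, 0 to 3 and 46 to 165 in T-47D. The tested members called ranged from 0 to 3, 0 to 1 and 0 to 2 in ECC-1, from 0 to 1 for estradiol in T-47D, from 5 to 6 between lines and from 0 to 1 for the estradiol interaction.

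Genes called in ECC-1 with estradiol (262) numbered 139 with a filter on the mean (5 or more scaled RPKM) and 123 with array weights. With BPA (27) they numbered 16 with a pseudocount of 0.1, 68 with array weights and 41 with both first estradiol libraries omitted, a setting chosen after seeing the data. With genistein (134) the same settings gave 82 (mean of at least 5), 841 (array weights) and 418 (both omitted). In T-47D with estradiol (445) there were 261 with a mean of at least 5, 92 with array weights and 188 with the line fitted alone. With genistein (111) there were 56, 206 and 49, and 263 with both omitted.

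Tested members called with estradiol in ECC-1 (2) were 0 with a pseudocount of 0.1, array weights or both first estradiol libraries omitted, and 1 without a filter or with a mean of at least 5. FOSL1, at 2.6 scaled RPKM or below in every library, was not tested with a mean of at least 5. Among the lost calls, EGR1 had adjusted p = 0.0571 without a filter in limma. With genistein (1) they were 0 with a pseudocount of 0.1 or no filter, 3 with array weights and 2 with ECC-1 alone. With BPA (0) they were 1 with a pseudocount of 1, the replicate block, array weights or ECC-1 alone. The estradiol interaction (0) gave 1 with quantile normalization or a pseudocount of 1.

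Replicate differences of groups within a line correlated from -0.19 to 0.30 in ECC-1 and from -0.22 to 0.41 in T-47D. Not every pair of groups was above 0.1, so the numbers were not taken to pair the samples. With the replicate block, genes called were 280, 27 and 147 in ECC-1 and 537, 0 and 134 in T-47D (estradiol, BPA, genistein), and EGR1 with BPA in ECC-1 passed at 1.30 (adjusted p = 0.0427 in limma). The block changed no other call of a member.

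Signs turned only for differences that had not passed; the cause was not tested. FOSL2 with BPA in ECC-1 was 0.01 with RPKM as deposited and 0.02 with quantile normalization, and JUND with estradiol in T-47D was -0.27 with both first estradiol libraries omitted. Leave-one-out ranges that crossed 0 were -0.05 to 0.27 (EGR1, estradiol, T-47D), -0.07 to 0.22 and -0.19 to 0.10 (FOSL1, estradiol and BPA, T-47D), -0.11 to 0.10 and -0.10 to 0.04 (FOSL2, BPA, ECC-1 and T-47D), -0.35 to 0.03 and -0.30 to 0.01 (JUNB, BPA in ECC-1 and between lines), -0.05 to 0.07 (EGR3, BPA, T-47D) and, around a value of 0.00, -0.27 to 0.27 (FOS, BPA, T-47D). For JUN they were -0.45 to 0.24, -0.09 to 0.22 and -0.30 to 0.10 in ECC-1 and -0.19 to 0.14, -0.16 to 0.20 and -0.06 to 0.11 in T-47D (estradiol, BPA, genistein), and for JUND in T-47D -0.27 to 0.62, -0.04 to 0.09 and -0.01 to 0.05.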
